A study of Mus musculus with 16 samples.

Results

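Integrins, laminins and the glycoproteins of basement membranes were followed in mouse neural crest stem cells before and after priming. The set holds 35 genes, chosen by family name and not by a threshold on their values: 11 integrin alpha subunits, 7 integrin beta subunits, 10 laminin chains, 4 basement membrane glycoproteins (Nid1, Nid2, Hspg2 and Agrn) and 3 other matrix glycoproteins (Fn1, Vtn and Tnc). Of these, 34 were measured among 18194 genes in all, each by the brightest probe set that carries only that gene's symbol. Itga11 had no such probe set and has no value here.

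RNA was measured on 16 arrays in 4 groups of 4. All cells were primary mouse neural crest cells grown in a medium for neural crest stem cells (labelled NCSCs). The first group was labelled as not primed, although the treatment field of its labels reads like that of the others, which had been exposed to instructive growth factors that prime towards glia (labelled Glia), neurons (labelled Autonomic) or mesenchyme (labelled Mesenchymal). The sources used here do not give the growth factors, length of exposure, strain or embryonic age. Since nothing says that replicates were separate cultures, the p-values reflect the spread among these 16 samples alone, and that spread may be technical.

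Integrins are receptors built of an alpha and a beta subunit that span the cell membrane and couple the extracellular matrix to the actin cytoskeleton. The subunit beta 1 pairs with most of the alpha subunits measured here, among them alpha 3 and alpha 6, which bind laminins, and alpha 5, which binds fibronectin. Laminins are trimers of an alpha, a beta and a gamma chain that polymerise into the sheet of a basement membrane, where nidogens and perlecan (Hspg2) join them to collagen IV. Neural crest cells migrate along fibronectin and laminin, and beta 1 integrins are known to be required for crest cell migration and for the development of Schwann cells.

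The 3 genes on which the results turn most are Itgb1, Itga3 and Itga5, since these passed the test once a single array was left out, as described with their values. The 250 bases before their RefSeq start sites, from GRCm38.p6, are printed with the GC box letters in capitals. The Itgb1 window is chr8:128685404-128685653 on the plus strand, the Itga3 window, at the more upstream of 2 listed starts, is chr11:95076715-95076964 on the minus strand, and the Itga5 window is chr15:103366792-103367041 on the minus strand.
Itgb1: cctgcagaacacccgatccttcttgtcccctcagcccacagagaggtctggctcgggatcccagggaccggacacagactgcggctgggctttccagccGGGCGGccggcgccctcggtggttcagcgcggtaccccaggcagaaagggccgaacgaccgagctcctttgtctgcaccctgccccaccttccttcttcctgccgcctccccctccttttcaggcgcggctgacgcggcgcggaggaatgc
Itga3: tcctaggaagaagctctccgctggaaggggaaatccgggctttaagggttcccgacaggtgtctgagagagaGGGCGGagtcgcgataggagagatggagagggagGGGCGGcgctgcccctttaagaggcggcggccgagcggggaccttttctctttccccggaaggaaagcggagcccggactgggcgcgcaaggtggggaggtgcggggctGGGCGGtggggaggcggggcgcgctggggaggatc
Itga5: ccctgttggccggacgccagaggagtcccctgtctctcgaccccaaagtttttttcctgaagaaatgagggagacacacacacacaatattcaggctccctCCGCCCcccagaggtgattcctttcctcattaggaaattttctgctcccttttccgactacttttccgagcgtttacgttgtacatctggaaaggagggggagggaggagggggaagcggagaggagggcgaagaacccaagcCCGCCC
The letters GGGCGG, the core of the GC box bound by SP1-family factors, were searched on both strands and occurred 1 time in the Itgb1 window, 3 times in that of Itga3 and 2 times in that of Itga5. They were in 14 of the 28 windows listed for 23 measured members (50%), against 32.7% of the 32851 windows of this length searched. A chromosome was left out of the search, for the members and for the background alike. CCAAT was in 4 of the 28 (14.3%, against 33.8% of all windows searched) and TATAAA in 3 (10.7% against 12.4%). The AP-1 letters TGANTCA and the SMAD palindrome GTCTAGAC were in 0 (against 6.75% and 0.167%). A match is only a description of the letters, and the arrays hold no binding data.

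Values are log2 intensities, and array medians lay between 3.05 and 3.15, close together as the authors' normalization makes them. Of 12 neural crest markers, 8 were above the array median on all arrays, while Snai1 was above it on 7 and Twist1 on 9. Of the 8 endothelial markers 1 (Erg) was above the median on most arrays, and Pecam1, Tek and Emcn were below it on all. The linear intensity summed over 9 blood and macrophage markers was 428 in unprimed replicate 3 (64.4 to 149 in the others). It was 302 in neuron-primed replicate 4 (63 to 73.4). Mesenchyme-primed replicates 1 and 2 held 332 and 296 (64.1 and 103 in the others), and glia-primed arrays 64.2 to 83. The high sums lay mainly in the globins Hbb-y and Hba-x, while Ptprc and Aif1 were above the median on 0 arrays. Their part in the results was not tested. Libraries stood apart by markers of neural tube progenitors, such as Sox1. The linear intensity summed over 8 markers was 1830 in unprimed replicate 4 (243 to 394 in the others). It was 1709 in neuron-primed replicate 1 (85.9 to 582) and 1149 in mesenchyme-primed replicate 3 (147 to 307), against 80.3 to 243 in glia-primed arrays. Not every marker followed: Pax6 was 6.98 in mesenchyme-primed replicate 3 but 6.59 in replicate 4, and 8.86 in neuron-primed replicate 4. Sox3 lay at 3.81 to 4.76 on all arrays, Olig2 was above the array median on 1 and Emx2 on 0. The sum of the neural crest markers was 937 in neuron-primed replicate 1, with 1596 to 2002 in the other neuron-primed arrays, and its Sox10, a crest transcription factor, was 4.30 against 8.07 to 8.27. Where leaving out 1 of the 3 arrays with high progenitor sums, or all 3, ended a call or moved a difference by over 1.5 times, that value is given beside the result. The part of other cells in them was not tested. Xist, expressed from the inactive X chromosome of female cells, was 6.39 to 10.52 in unprimed arrays and 2.61 to 5.34 in glia-primed ones, with no overlap. It was 3.15 in neuron-primed replicate 1 (7.55 to 10.58 in the others) and 2.68 in mesenchyme-primed replicate 2 (8.96 to 11.22). The part of sex was not tested beyond a fit with the Xist level as a covariate, under which 1 member, Itgb1, passed, in neuron- against mesenchyme-primed arrays. In bulk RNA, fewer cells of a type and less RNA per cell cannot be told apart.

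**Figure D1:**
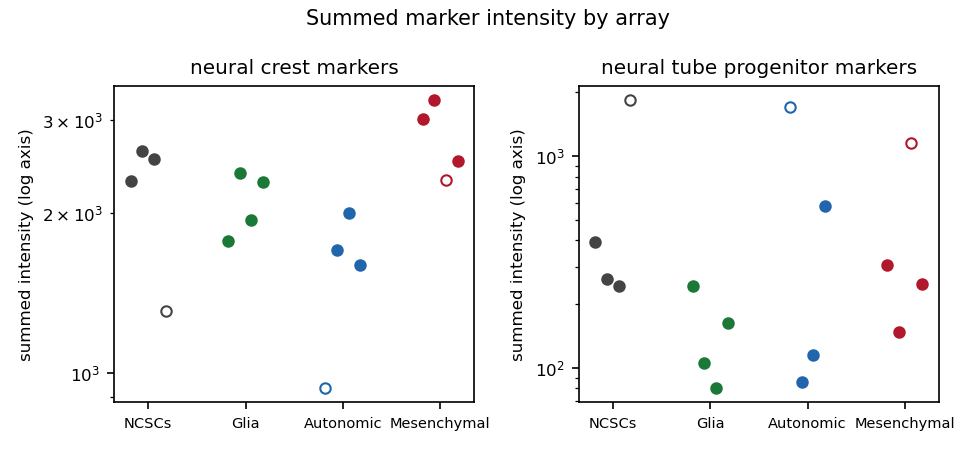
Summed linear intensity (log axis) of 12 neural crest markers (left) and 8 neural tube progenitor markers (right), 1 point per array in each group. Open symbols are unprimed replicate 4, neuron-primed replicate 1 and mesenchyme-primed replicate 3, which have the highest progenitor sums of their groups, at 1830, 1709 and 1149.

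Most members with a clear signal were found in every group, so the adhesion genes describe levels more than presence. Of the 34, 16 were above the array median on all 16 arrays: 5 alpha integrins (Itga3, Itga5, Itga6, Itga9 and Itgav), Itgb1, 5 laminin chains (Lama1, Lama5, Lamb1, Lamb2 and Lamc1), Nid1, Hspg2, Agrn, Fn1 and Tnc. Itgb6, a beta subunit of epithelia, and Lamb3, a chain of the laminin of skin, were below it on all arrays, at 1.06 to 2.22 and 2.00 to 2.57. The other 16 lay on both sides. Among these, Itga1, a collagen receptor subunit, was above the median on 1 array and Itgb8 on 3.

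No member passed the test in any comparison. The count was 0 of 34 in glia-primed against unprimed arrays, where 0.511% of all genes passed, in neuron-primed against unprimed (0.434%), in mesenchyme-primed against unprimed (0.0220%), in glia- against neuron-primed (0.0110%), in glia- against mesenchyme-primed (0.225%), in neuron- against mesenchyme-primed (0.346%), in all primed against unprimed arrays (0.445%) and in the F test for any difference among the 4 groups (0.599%). All are limma fits with Benjamini-Hochberg adjustment over 18194 genes at a threshold of 0.05. With so few genes passing, fewer than 1 member would pass at the background share, and a count of 0 does not show that the members were alike between groups. The comparisons with unprimed arrays share those arrays, and each primed group enters several comparisons, so their values are given side by side only.

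At an unadjusted p under 0.05 the counts were largest for neuron-primed arrays against unprimed and mesenchyme-primed ones, with no test of the excess over all genes. Neuron-primed against unprimed arrays gave 9 of 34 (9.80% of all genes), of which 6 were higher (4.29%) and 3 lower (5.51%). Neuron- against mesenchyme-primed arrays gave 10 (8.23%), with 8 higher (4.35%) and 2 lower (3.88%). Glia-primed against unprimed arrays gave 6 (9.91%), with 5 higher (4.00%) and 1 lower (5.91%), and glia- against mesenchyme-primed arrays gave 5 (7.05%), with 4 higher (3.40%) and 1 lower (3.66%). All primed against unprimed arrays gave 4 (10.2%), with 3 higher (3.62%) and 1 lower (6.54%). Glia- against neuron-primed arrays gave 4 (6.24%), with 0 higher (2.85%) and 4 lower (3.39%). Mesenchyme-primed against unprimed arrays gave 1 (7.70%), with 0 higher (3.14%) and 1 lower (4.56%). The F test gave 8 of 34 members and 1822 of 18194 genes.

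The median log2 difference of the members was close to that of all genes. It was -0.06 in glia-, 0.11 in neuron- and -0.07 in mesenchyme-primed arrays against unprimed ones, where all genes had -0.01, 0.00 and -0.01. By family, the 10 laminin chains had a median of -0.22 in glia-primed arrays, with all 10 estimates below 0 and 0 at an unadjusted p under 0.05 (dimmer probe sets of Lamb1, Lamc1, Lamc3 and Lama3 gave 0.82, 0.48, 0.40 and 0.23, so this tally depends on the probe set), while the 4 basement membrane glycoproteins had 0.89 and the 10 alpha integrins 0.12. The neuron-primed medians were -0.06 for laminins, 0.60 for the basement membrane glycoproteins, -0.06 for alpha and 0.06 for beta integrins. Hspg2 gave 0.76 in glia- and 0.87 in neuron-primed arrays, but its dimmer set -0.57 and -0.05. The 2 medians of the basement membrane glycoproteins thus also depend on the probe set.

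**Figure D2:**
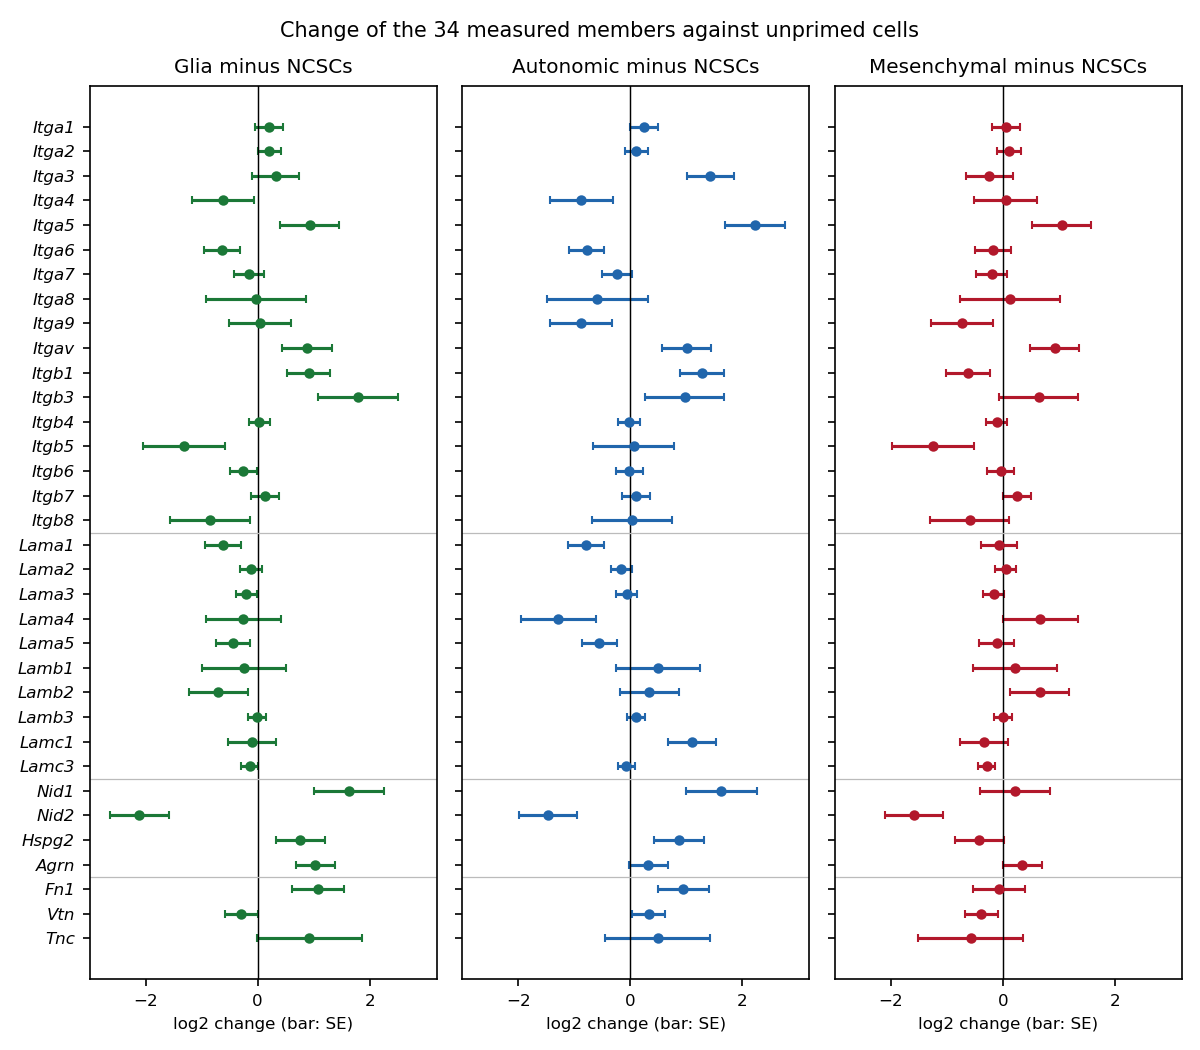
Log2 difference of each of the 34 measured members from unprimed cells in glia-primed (left), neuron-primed (middle) and mesenchyme-primed arrays (right), as point and standard error, with lines between the families. No point passed the adjusted threshold. The largest are Nid2 at -2.11 in glia-primed and Itga5 at 2.23 in neuron-primed arrays.

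Itgb1, the shared beta 1 subunit, was higher in glia- and neuron-primed than in mesenchyme-primed arrays. It read 8.38, 8.22, 8.44 and 7.95 in unprimed replicates 1 to 4 and 8.99, 9.16, 9.37 and 9.10 in glia-primed ones. Neuron-primed replicates read 8.40, 9.93, 9.23 and 10.55, and mesenchyme-primed ones 7.30, 7.53, 7.13 and 8.55. Every glia-primed array was thus above every unprimed and every mesenchyme-primed array. Neuron-primed replicates 2 to 4 were above them too, while replicate 1, which stood apart by its markers, was not. The group means were 8.25 ± 0.22 (SD, n = 4), 9.15 ± 0.16, 9.53 ± 0.92 and 7.63 ± 0.63 in unprimed, glia-, neuron- and mesenchyme-primed arrays.

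Neuron- against mesenchyme-primed arrays gave Itgb1 a log2 difference of 1.90 (SE 0.39, 3.74-fold, limma adjusted p = 0.0583), the member nearest to the threshold. Glia- against mesenchyme-primed arrays gave 1.53 (SE 0.39, adjusted p = 0.185). Against unprimed arrays the differences were 1.28 in neuron-primed (SE 0.39, adjusted p = 0.216), 0.91 in glia-primed (SE 0.39, adjusted p = 0.445) and -0.62 in mesenchyme-primed arrays (adjusted p = 0.753), and the F test gave an adjusted p of 0.0766. A second bright Itgb1 probe set, of mean 8.12, gave smaller differences of the same signs: 0.70, 0.64 and -0.35 in glia-, neuron- and mesenchyme-primed arrays against unprimed ones, and 0.98 for neuron- against mesenchyme-primed ones. Of the dimmer sets, those of means 5.53, 4.00 and 3.90 gave 0.75, 0.14 and 0.22 for the last pair, so its size depends on the probe set.

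Itga3, which with beta 1 forms a receptor for laminins that contain alpha 5, was highest in 3 neuron-primed arrays. It read 5.20, 7.74, 7.25 and 7.04 in neuron-primed replicates 1 to 4. The unprimed replicates read 6.07, 5.20, 4.77 and 5.45, the glia-primed ones 5.71, 5.60, 5.71 and 5.77, and the mesenchyme-primed ones 5.23, 4.99, 4.93 and 5.40. Neuron-primed replicates 2 to 4 lay above all 12 arrays of the other groups, and replicate 1 lay among them. The linear intensity summed over 9 epithelial markers was 92.9 in neuron-primed replicate 1 and 633, 236 and 177 in replicates 2 to 4. It was 73.4 to 282 in the other groups, highest in unprimed replicate 3, which had the lowest Itga3 of all arrays, 4.77. Of the 9 markers 3 (Krt8, Krt18 and Krt5) were above the array median on most arrays, Cdh1 was above it on 1, and Cldn6 and Esrp1 on 0. Their part in the result was not tested. For Itga3 the log2 difference was 1.43 from unprimed arrays (SE 0.42, limma adjusted p = 0.196) and 1.67 from mesenchyme-primed ones (SE 0.42, adjusted p = 0.152). Itga3 had 2 further probe sets, of means 5.70 and 4.87, which gave 1.91 and 1.48 against unprimed arrays.

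Itga5, the fibronectin receptor subunit, had the largest positive difference of any member. Its neuron-primed replicates read 5.84, 7.58, 8.41 and 7.83. Unprimed replicates read 4.25, 6.10, 5.33 and 5.05, glia-primed ones 6.37, 5.78, 6.06 and 6.25, and mesenchyme-primed ones 6.58, 6.60, 4.97 and 6.79. Again neuron-primed replicates 2 to 4 were above all arrays of the other groups. The log2 difference between neuron-primed and unprimed arrays was 2.23 (SE 0.53, 4.69-fold, limma adjusted p = 0.103). It was 1.05 in mesenchyme-primed arrays (SE 0.53, adjusted p = 0.677), 1.40 over all primed arrays (SE 0.43, adjusted p = 0.244) and -1.30 between glia- and neuron-primed arrays (SE 0.53, adjusted p = 0.762). This probe set is of a kind that can match more than 1 transcript family. The next Itga5 set, of mean 3.42, near the array medians, gave only 0.36 between neuron-primed and unprimed arrays, so the size of the difference depends on the probe set.

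Leaving out neuron-primed replicate 1 moved these 3 integrins past the threshold. Without it, 3 of 34 members passed in neuron-primed against unprimed arrays, where 1.30% of all genes did: Itga3 at a log2 difference of 1.97 (limma adjusted p = 0.00238), Itga5 at 2.76 (adjusted p = 0.00906) and Itgb1 at 1.66 (adjusted p = 0.0297), all higher. Neuron- against mesenchyme-primed arrays then gave 2 members (0.775% of all genes), Itga3 at 2.21 (adjusted p = 0.00153) and Itgb1 at 2.28 (adjusted p = 0.00549), and the F test gave 3 (1.21%). With the 3 arrays that stood apart by their progenitor markers left out together, a choice made after seeing the data, Itga3 (2.00, adjusted p = 0.0132) and Itga5 (2.71, adjusted p = 0.0118) passed against unprimed arrays (0.572% of all genes). Itga3 (2.14, adjusted p = 0.0104) and Itgb1 (2.11, adjusted p = 0.0259) passed against mesenchyme-primed arrays (0.506%), and the F test gave 2 members (0.676%). No label gives a reason to leave any array out.

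**Figure D3:**
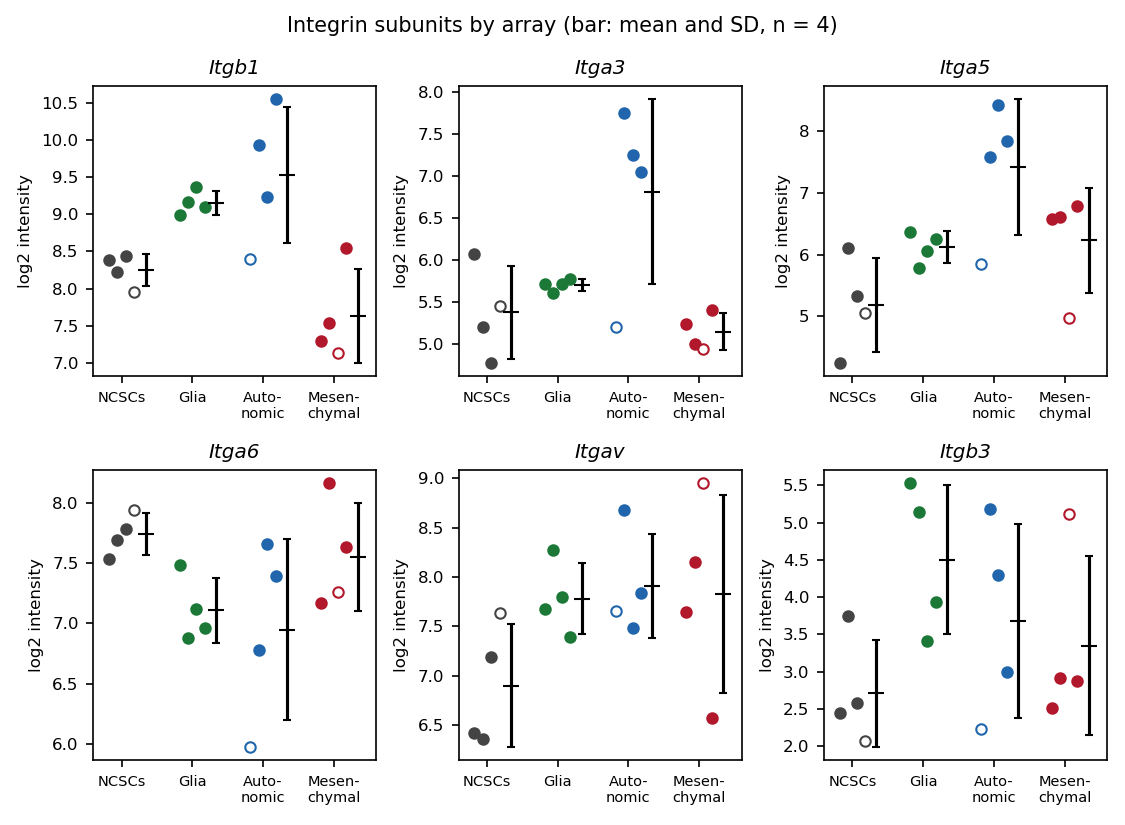
Log2 intensity of 6 integrin subunits on each array, by group, with the mean and SD (n = 4) beside the points. Open symbols are the arrays with the highest progenitor marker sums of their groups. For Itgb1, Itga3 and Itga5 the open neuron-primed point lies at 8.40, 5.20 and 5.84, below the other 3 neuron-primed points.

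Itga6, the alpha 6 subunit of laminin receptors, was lower in glia-primed arrays, at 6.88 to 7.48, than in unprimed ones, at 7.53 to 7.94, with no overlap. The log2 differences were -0.63 in glia-primed (SE 0.32, limma adjusted p = 0.547) and -0.78 in neuron-primed arrays (SE 0.32, adjusted p = 0.42), the latter -0.46 (adjusted p = 0.565) without neuron-primed replicate 1 and -0.39 without the 3 arrays. A second Itga6 set of like brightness, of mean 7.24, gave 0.05 and -0.74, so the glia-primed difference rests on 1 probe set. Itgav, the alpha subunit of the vitronectin receptors, averaged 6.90 ± 0.62 in unprimed and 7.78 ± 0.36, 7.91 ± 0.53 and 7.83 ± 1 in glia-, neuron- and mesenchyme-primed arrays (all SD, n = 4). Its difference over all primed arrays was 0.94 (SE 0.36, adjusted p = 0.375), and the groups overlapped. The next Itgav set, of mean 5.27, gave 1.52, 1.73 and 1.26 for glia-, neuron- and mesenchyme-primed arrays, but another, of mean 5.20, gave -0.36, 0.74 and -0.11, so the sign in glia- and mesenchyme-primed arrays depends on the probe set.

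Among the beta subunits that pair with alpha v, Itgb3 read 5.53, 5.14, 3.41 and 3.93 in glia-primed and 2.45, 3.75, 2.58 and 2.07 in unprimed arrays. Its unprimed level lay around the array median, and the difference of 1.79 (SE 0.71, limma adjusted p = 0.385) is therefore rough. Itgb5 averaged 5.74 ± 0.67 (SD, n = 4) in unprimed, 4.43 ± 1.2 in glia-, 5.80 ± 1.6 in neuron- and 4.49 ± 0.82 in mesenchyme-primed arrays. It differed by -1.37 between glia- and neuron-primed arrays (SE 0.73, adjusted p = 0.844) and by -1.25 between mesenchyme-primed and unprimed ones (SE 0.73, adjusted p = 0.737). A set of nearly the same brightness, of mean 5.10, gave 0.15 for the latter. The former was -2.10 without neuron-primed replicate 1 and -0.86 without glia-primed replicate 4, and the latter -0.80 without the 3 arrays. Itgb4, the partner of alpha 6 in hemidesmosomes, stayed within 2.89 to 3.67 on all arrays, near the array median.

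The remaining integrins were dim or varied as much within groups as between them. Itga4, a fibronectin receptor subunit of migrating crest, ranged from 2.45 to 5.71, Itga8 from 2.99 to 8.28 and Itga9, a tenascin receptor subunit, from 3.54 to 6.97. Itga8 alone spanned 2.99 to 8.28 within the neuron-primed group, with replicates 1 to 4 at 2.99, 4.77, 7.35 and 8.28. The collagen receptor subunits Itga1 and Itga2 lay at 2.05 to 3.16 and 2.63 to 3.66. Itga7, a laminin receptor subunit of muscle, lay at 2.85 to 4.15 and Itgb7, of leukocytes, at 3.08 to 4.22.

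Among the laminin chains, Lamc1, the gamma 1 chain found in most laminins, read 7.49, 8.83, 7.90 and 10.17 in neuron-primed arrays, all above the 4 mesenchyme-primed ones at 7.38, 6.75, 7.10 and 7.39. The log2 difference was 1.44 (SE 0.43, limma adjusted p = 0.269). It was 1.10 against unprimed arrays (SE 0.43, adjusted p = 0.394), which read 7.10, 7.74, 7.77 and 7.37, and -1.20 for glia- against neuron-primed arrays (SE 0.43, adjusted p = 0.697). These rest in large part on neuron-primed replicate 4, without which they were 0.92, 0.58 and -0.68. That array also had the highest blood and macrophage marker sum of its group, 302. The second Lamc1 probe set, of mean 7.39 against 7.66 for the first, gave -0.04 between neuron- and mesenchyme-primed arrays, so the 2 sets disagree.

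Lama4, the alpha 4 chain of vessel and nerve basement membranes, split the neuron-primed arrays, at 2.73 and 2.89 in replicates 1 and 4 and 5.91 and 6.14 in replicates 2 and 3. Mesenchyme-primed arrays read 6.77, 5.47, 6.81 and 6.43, and the difference of -1.95 (SE 0.67, limma adjusted p = 0.378) rests on the 2 low arrays. Without the 3 arrays that stood apart it was -1.24. A dimmer Lama4 set, of mean 3.78, gave -0.65 for this pair of groups. Lama1, an alpha chain of early embryonic laminin, lay at 4.81 to 4.99 in unprimed arrays, and at 5.16, 4.02, 3.65 and 3.65 in neuron-primed ones (difference -0.79, SE 0.32, adjusted p = 0.423). Without neuron-primed replicate 1 the Lama1 difference was -1.14 (adjusted p = 0.0508). Lama5 was lower in neuron-primed (4.41 to 4.83) than in mesenchyme-primed arrays (4.90 to 5.20) with no overlap, by 0.45 on the log2 scale (adjusted p = 0.796). Its dimmer sets, of means 3.03 and 2.57, gave -0.14 and -0.11 for this pair.

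Lamb2, a beta chain of nerve and muscle, was lower in glia-primed arrays, at 4.35, 3.57, 3.73 and 4.39, than in mesenchyme-primed ones, at 4.87, 5.43, 4.95 and 6.24, with no overlap. The log2 difference was -1.36 (SE 0.53, limma adjusted p = 0.605). Lamb1, the partner of gamma 1 in the early laminins, ranged from 5.45 to 9.11, and overlapped among all 4 groups. Lama2, Lama3 and Lamc3 lay close to the array medians in all groups, between 2.77 and 3.96 over the 3 genes.

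Few members had arrays of 2 groups that did not overlap, and the counts were not above the background in every comparison. The count was 3 of 34 for glia-primed against unprimed arrays (Nid2, Itgb1 and Itga6, against 7.18% of all genes), 1 each for neuron- and mesenchyme-primed against unprimed arrays (Nid2, against 5.53% and 5.69%) and 0 for glia- against neuron-primed ones (2.96%). It was 4 for glia- against mesenchyme-primed arrays (Itgb1, Hspg2, Itga3 and Lamb2, against 4.55%) and 2 for neuron- against mesenchyme-primed ones (Lamc1 and Lama5, against 4.17%).

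The 2 nidogens, which link laminin to collagen IV, had means on opposite sides of the unprimed mean in glia- and neuron-primed arrays. Nid2 read 6.29, 6.41, 7.08 and 6.82 in unprimed arrays. It read 5.06, 5.46, 4.71 and 2.92 in glia-primed, 5.32, 5.54, 4.07 and 5.79 in neuron-primed and 4.14, 4.95, 5.21 and 5.93 in mesenchyme-primed arrays. All 12 primed arrays were below all 4 unprimed ones, and Nid2 was the only member for which this held in all 3 primed groups. The 3 comparisons share the unprimed arrays, and the share of all genes for which this held was not counted, so whether it is unusual is not known. The log2 differences were -2.11 in glia-primed (SE 0.52, 4.32-fold lower, limma adjusted p = 0.107), -1.47 in neuron-primed (SE 0.52, adjusted p = 0.326) and -1.59 in mesenchyme-primed arrays (SE 0.52, adjusted p = 0.481), and -1.73 over all primed arrays (SE 0.43, adjusted p = 0.123). Over the alternatives tried, the glia-primed difference ran from -2.48 to -1.50 with adjusted p of 0.0692 to 0.395, so it kept its sign and never passed. Nid2 has a single probe set.

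Nid1 read 9.23, 9.03, 8.78 and 7.71 in glia-primed and 7.23, 9.50, 8.77 and 9.22 in neuron-primed arrays. Unprimed arrays read 7.13, 7.53, 8.38 and 5.18 and mesenchyme-primed ones 6.67, 7.36, 7.01 and 8.05. The groups overlapped, with unprimed replicate 4 the lowest of all 16 arrays. Mesenchyme-primed arrays averaged 7.27 ± 0.59 (SD, n = 4), little different from 7.05 ± 1.4 in unprimed ones. The difference was 1.63 (SE 0.63) in both glia-primed (limma adjusted p = 0.373) and neuron-primed arrays (adjusted p = 0.391) against unprimed ones, 1.41 for glia- against mesenchyme-primed arrays (SE 0.63, adjusted p = 0.676) and 1.16 over all primed arrays (SE 0.51, adjusted p = 0.458). Without unprimed replicate 4 the glia-primed difference was 1.01, the neuron-primed one 1.00 and that over all primed arrays 0.53. A second Nid1 set, of mean 6.45, gave 1.59 and 1.55 for glia- and neuron-primed against unprimed arrays.

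Hspg2, the heparan sulfate proteoglycan perlecan, read 6.89, 5.95, 5.68 and 6.38 in glia-primed and 5.22, 6.49, 7.17 and 6.46 in neuron-primed arrays, against 5.52, 4.94, 4.26 and 5.43 in mesenchyme-primed ones. Glia-primed arrays were all above the mesenchyme-primed ones, and neuron-primed arrays were so except replicate 1. The log2 difference between neuron- and mesenchyme-primed arrays was 1.30 (SE 0.44, limma adjusted p = 0.378). The dimmer Hspg2 set, of mean 4.32, gave 0.25 for the same pair. It averaged 3.99 in glia- and 4.25 in mesenchyme-primed arrays, the reverse of the first set. Agrn, the proteoglycan agrin of nerve-muscle synapses, read 9.48, 8.42, 9.10 and 8.96 in glia-primed and 8.48, 7.53, 8.19 and 7.66 in unprimed arrays. Its difference was 1.03 (SE 0.35, adjusted p = 0.299), with an overlap of 1 array on each side, and its dimmer probe set, of mean 4.43, gave 1.01. With the ratio of Gapdh control probe sets, a measure of RNA quality, as a covariate the Agrn difference was 0.55 (limma adjusted p = 0.761).

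Fn1, which encodes fibronectin, read 8.76, 8.40, 8.33 and 7.57 in glia-primed, 7.18, 8.76, 8.23 and 8.38 in neuron-primed, 7.57, 6.40, 7.09 and 7.66 in unprimed and 7.55, 5.71, 7.55 and 7.62 in mesenchyme-primed arrays. The glia-primed difference from unprimed arrays was 1.08 (SE 0.46, limma adjusted p = 0.441) and the neuron-primed one 0.95 (SE 0.46, adjusted p = 0.532). With the Xist level as a covariate the glia-primed difference was 2.05 (adjusted p = 0.104). Since Xist did not overlap between glia-primed and unprimed arrays, this fit cannot tell the Xist level and the priming apart. Fn1 shared its lowest neuron-primed array, replicate 1, with Itgb1, Itga3, Itga5, Nid1, Hspg2 and Tnc. This was not particular to these genes: replicate 1 was also the lowest for other members, such as Itga6, Itga8, Lamb1, Lamc1 and Lama4. For Lama1 and Itgb8 it was the highest, and the share over all genes was not counted. Tnc, the glycoprotein tenascin C, averaged 7.32 ± 1.1 (SD, n = 4) in unprimed, 8.24 ± 0.91 in glia-, 7.81 ± 2.1 in neuron- and 6.76 ± 1.5 in mesenchyme-primed arrays. Its difference between glia- and mesenchyme-primed arrays was 1.48 (SE 0.94, adjusted p = 0.822), and 0.90 without mesenchyme-primed replicate 2. Vtn, the adhesive plasma protein vitronectin, lay at 2.44 to 4.15 and was above the array median on 4 of 16 arrays.

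**Figure D4:**
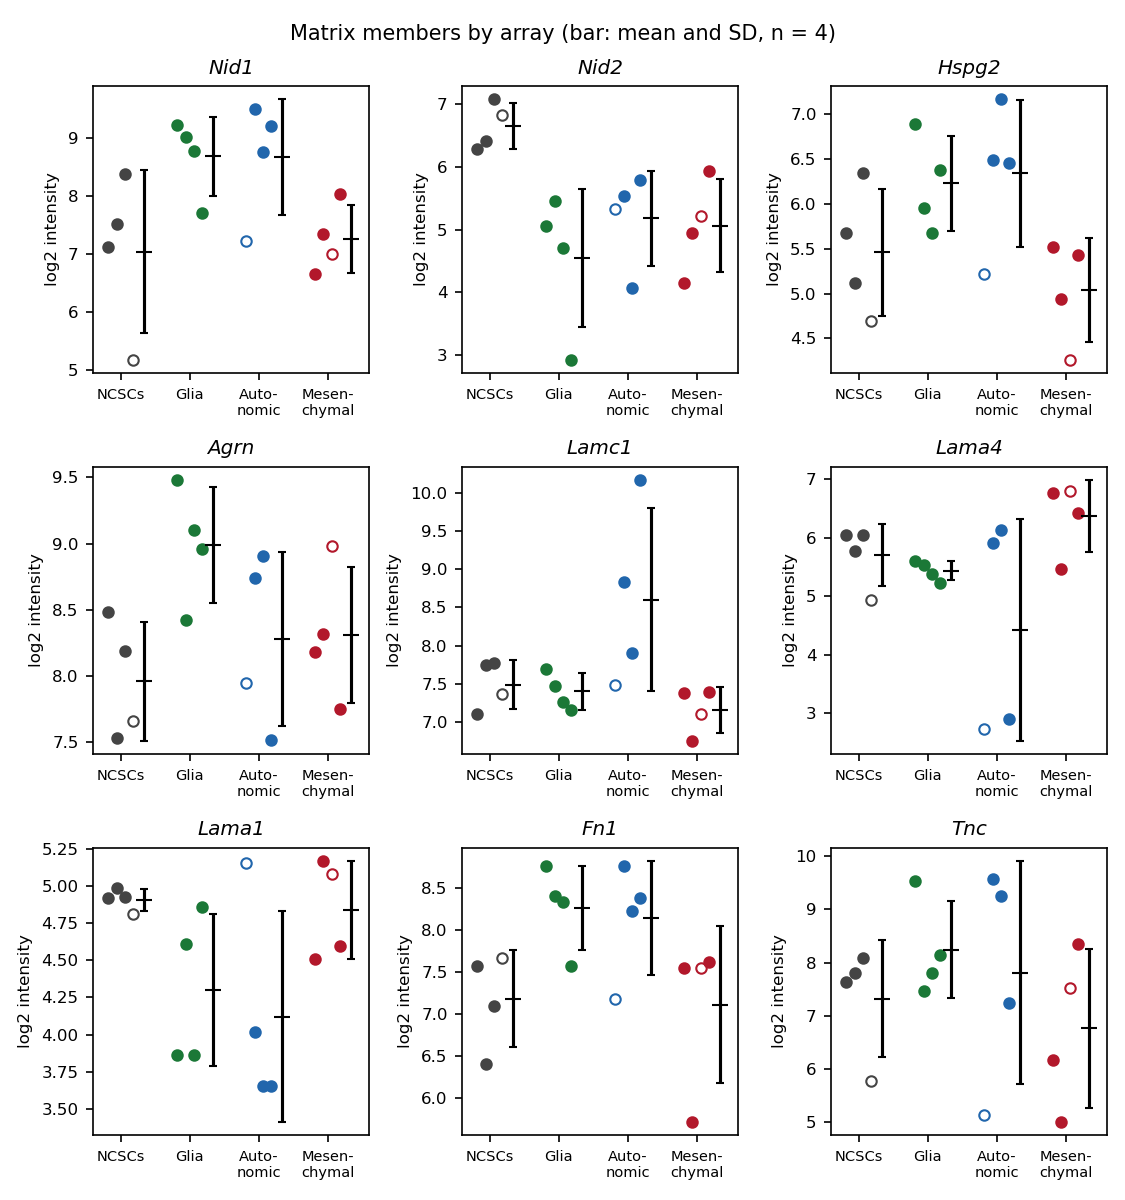
Log2 intensity of 9 matrix members on each array, by group, with the mean and SD (n = 4) beside the points and open symbols for the arrays with the highest progenitor marker sums of their groups. For Nid2 all 12 primed points lie below the 4 unprimed ones, whose lowest is 6.29.

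The linear intensity summed over 11 paraxial mesoderm and fibroblast markers ranged over 165 to 940 without priming and 557 to 1430 after glial priming. Neuron-primed arrays held 326 to 1473, and mesenchyme-primed ones 251 to 4113, the highest in replicate 3. Of the 11, Col1a1, Tcf15 and Pdgfrb were above the array median on all 16 arrays, while Tbx18 was above it on 0, Meox2 on 1 and Lum on 2. The differences in the sum lay mainly in Col1a1 and Col3a1, while Pdgfrb averaged 5.34, 5.30, 5.29 and 5.02 in unprimed, glia-, neuron- and mesenchyme-primed arrays. In the neuron-primed group replicate 1 had the lowest sum, 326 against 1067 to 1473, and also the lowest Fn1, Nid1 and Hspg2, whereas mesenchyme-primed replicate 3, with the highest sum of all arrays, had their lowest Hspg2, 4.26. The log2 ratio of the 3′ to the 5′ Gapdh control probe sets, a measure of RNA quality, was 2.20 to 2.58 without priming. After priming to glia, neurons and mesenchyme it was 2.44 to 3.33, 2.53 to 3.10 and 2.66 to 3.13. The same ratio of the Actb control sets was -0.70 to -0.39 without priming and, in the same order, -0.24 to -0.07, -0.92 to -0.29 and -0.40 to -0.08. It was lowest in neuron-primed replicate 1 and was not fitted. The part of these in the results was not tested, beyond a fit with the Gapdh ratio as a covariate, under which 0 members passed in every comparison.

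The genes that work with integrins were followed through 2 lists, of 29 measured adhesion genes of 31 listed and 23 measured other receptors and matrix partners of 25 listed. In neuron- against mesenchyme-primed arrays 1 adhesion gene and 1 partner passed, with 0.346% of all genes. In neuron-primed against unprimed arrays 2 partners passed (0.434%), and in the F test 1 partner (0.599%). No gene of the lists passed in the other comparisons, and the excess over all genes was not tested. Cd151, a tetraspanin that binds the laminin-binding integrins, rose in neuron- against mesenchyme-primed arrays, with 8.32, 9.26, 10.68 and 8.78 against 6.21, 6.40, 6.89 and 6.06. The log2 difference was 2.87 (SE 0.54, limma adjusted p = 0.0324), and the arrays did not overlap. This Cd151 probe set is of a cross-matching kind, and the brightest set that is not gave 0.12 (adjusted p = 0.948), while another such set, of mean 3.79, gave 1.32. The call was also lost without any of 10 single arrays: neuron-primed replicates 2 to 4, glia-primed replicates 2 and 3, each mesenchyme-primed replicate and unprimed replicate 3, with adjusted p up to 0.101.

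Dag1, the dystroglycan receptor that binds laminin, perlecan and agrin, fell in neuron-primed arrays. It read 6.93, 6.77, 6.74 and 6.51 there, 8.43, 7.59, 7.78 and 8.07 in unprimed and 7.86, 8.28, 7.69 and 8.64 in mesenchyme-primed arrays. Glia-primed arrays, at 7.17, 7.13, 6.71 and 6.91, also lay below every unprimed and every mesenchyme-primed array. The log2 difference of neuron-primed arrays was -1.23 from unprimed ones (SE 0.23, limma adjusted p = 0.0307) and -1.38 from mesenchyme-primed ones (SE 0.23, adjusted p = 0.0153), and the F test gave an adjusted p of 0.0154. The glia-primed differences did not pass, at -0.99 (adjusted p = 0.0808) and -1.14 (adjusted p = 0.0606). The other 3 Dag1 sets, of means 5.64 to 6.90, gave -0.69, -0.89 and -0.77 against unprimed arrays but only -0.18, -0.31 and -0.12 against mesenchyme-primed ones. The call against unprimed arrays was lost without any of neuron-primed replicates 2 to 4 or unprimed replicates 1, 3 and 4 (adjusted p of 0.0502 to 0.103), and that against mesenchyme-primed arrays without neuron-primed replicate 4 (0.0561) or mesenchyme-primed replicate 2. Without the 3 arrays that stood apart the first was -1.26 (adjusted p = 0.0643), with the Gapdh ratio as a covariate it was -1.08 (adjusted p = 0.21), and with the mean of all Dag1 sets the second was -0.50 (adjusted p = 0.707).

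Col18a1, the basement membrane collagen that yields endostatin, rose in neuron-primed arrays, at 6.76, 6.52, 5.95 and 7.25, from 4.75, 4.70, 4.94 and 5.75 in unprimed ones. The log2 difference was 1.58 (SE 0.30, limma adjusted p = 0.0327), with no overlap, and a second probe set, of mean 5.19, gave 0.92. The call was lost without neuron-primed replicates 2 or 4 or unprimed replicates 1, 2 or 3, at adjusted p of 0.0725 to 0.108, and with the Gapdh ratio as a covariate (0.0801). In fits of only the groups compared, the calls of Cd151, Dag1 and Col18a1 were all lost, at adjusted p of 0.114 to 0.189. Unlike the integrins, Col18a1 and Dag1 had neuron-primed replicate 1 on the same side as its group. Thbs1, the matricellular glycoprotein thrombospondin 1, read 7.40, 6.20, 6.24 and 6.45 in glia-primed against 3.69, 3.15, 5.07 and 4.09 in unprimed arrays. Its difference of 2.57 (SE 0.57, adjusted p = 0.0676) passed in 6 of 29 alternatives, among them the one without neuron-primed replicate 1 (adjusted p = 0.0145), although that array enters this difference only through the shared spread.

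Other genes of these lists did not pass. Src, the kinase activated at integrin adhesions, had the largest difference of the adhesion genes in 3 comparisons with unprimed arrays, at 3.39 in glia- (SE 1.29, limma adjusted p = 0.365), 2.47 in neuron- and 2.25 in mesenchyme-primed arrays, with unprimed arrays spread over 3.44 to 8.68. The last was 1.29 without the 3 arrays that stood apart and 3.38 without unprimed replicate 3. Tns1, a tensin of adhesion sites, had -1.57 in glia-primed (adjusted p = 0.455) and -1.91 in neuron-primed arrays (adjusted p = 0.33), which were -0.73 and -1.07 without unprimed replicate 3. Sdc4, a syndecan that acts with integrins on fibronectin, had -1.94 in glia-primed (adjusted p = 0.228) and -1.52 in mesenchyme-primed arrays (adjusted p = 0.555). Tln1, which encodes the talin that activates integrins, had 1.24 over all primed arrays (SE 0.36, adjusted p = 0.21) and passed there without neuron-primed replicate 1 (1.42, adjusted p = 0.0145).

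Between primed groups, Cd151 had -2.14 (SE 0.54, limma adjusted p = 0.379) and Parvb, a parvin that binds the kinase Ilk, -1.74 (adjusted p = 0.584) in glia- against neuron-primed arrays. Col4a1, a chain of collagen IV, had -1.48 (SE 0.95, adjusted p = 0.882) and Col18a1 -1.46 (adjusted p = 0.207) there. In glia- against mesenchyme-primed arrays Tns1 had -1.48 (adjusted p = 0.704), Actn1, an actin crosslinker of adhesions, 1.30 (adjusted p = 0.737), Thbs1 1.37 (adjusted p = 0.638) and Sdc2, a syndecan, -1.33 (adjusted p = 0.502). The adhesion list had a median of 0.19, 0.26 and -0.09 in glia-, neuron- and mesenchyme-primed against unprimed arrays, and the partner list 0.05, 0.12 and 0.15.

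**Figure D5:**
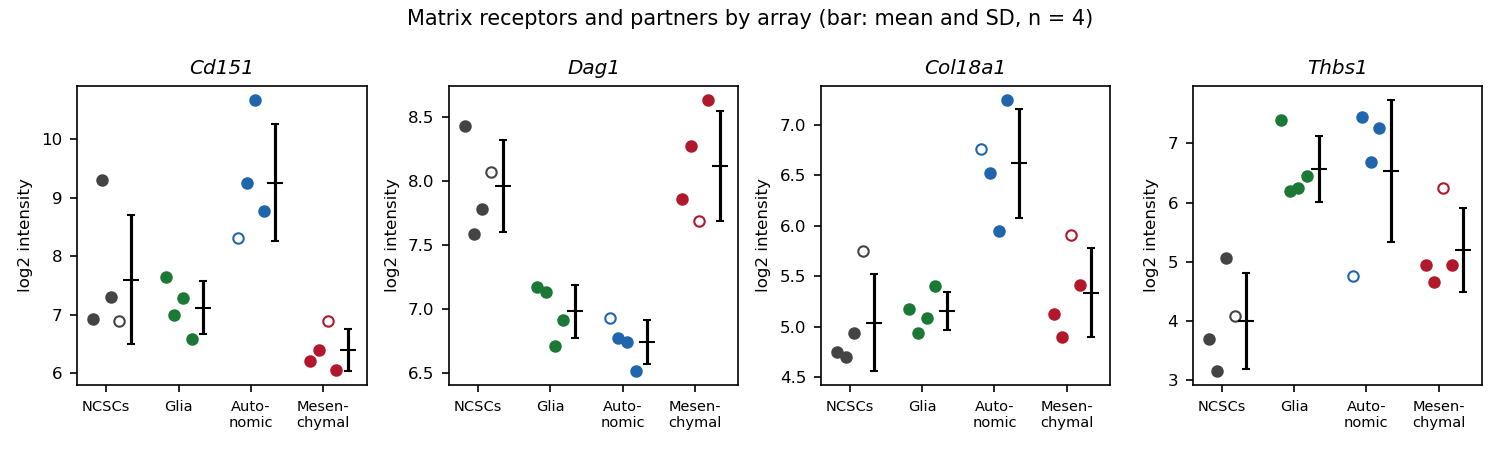
Log2 intensity of 4 integrin and laminin partners on each array, by group, with the mean and SD (n = 4) beside the points and open symbols for the arrays with the highest progenitor marker sums of their groups. Dag1 lies at 6.51 to 6.93 in neuron-primed arrays, below all unprimed arrays, whose lowest is 7.59, and Col18a1 lies at 5.95 to 7.25, above all unprimed arrays.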

How the data were processed

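Expression was measured on 16 arrays of biotinylated cRNA, 4 per group, with groups and replicate numbers from the titles and the cell type label. The deposited values are 1 intensity per probe set, made by the authors with RMA, as named, without a version, per the submitters' processing notes. The planned test assumed log2 values, but the deposited intensities, 1.49 to 31600, are linear, so their log2 was taken with no offset. RMA usually includes quantile normalization, which equalises arrays, so a shift of all genes would not show. Arrays have no read depth, and their number limits the precision.

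Of 45101 probe sets, 34958 carried a single symbol, 932 several and 9211 none, the last 2 classes left out. Entrez identifiers served to bring symbols up to date with RefSeq's GRCm38.p6 genes (99.4% matched), and the brightest probe set per gene was kept (18194 genes, 9012 with a choice). All 16 arrays entered a model of 4 group means in limma 3.58.1, R 4.3.3 (lmFit and eBayes, two-sided, Benjamini-Hochberg over all genes, called at an adjusted p under 0.05). The method was run on simulated data with independent noise and no outlying arrays, which cannot show how it handles arrays that stand apart. All 34 measured members are described by level. Differences are given for called members, the 3 largest per comparison, called genes of the 2 partner lists or else their 2 largest, and further pairs of gene and comparison chosen after their values were seen. Promoter windows are from RefSeq, with a chromosome left out, for 23 measured members. The members and lists were chosen with earlier results of these data known. Replicate numbers did not pair the samples: deviations from group means of arrays with the same number correlated at -0.0671 to 0.0641 in 24 pairs.

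Alternatives were the replicate block, cyclic loess, housekeeping centring, a filter on dim genes, other probe set rules, other eBayes settings, array weights, only the groups compared, an offset of 16, the Gapdh ratio or Xist level as a covariate and leaving out each array. Leaving out 3 arrays together was added after seeing the data.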

Additional observations from a re-analysis of the deposited data

Results flagged for a closer look

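In 7 of 136 groups of 4 arrays, over all measured members, 1 array lay far from the other 3 by the Dixon criterion, where chance gives about 1 in 20. Mesenchyme-primed replicate 3 was high for Itga1 at 3.10 (others 2.05 to 2.17) and Itgb3 at 5.12 (2.51 to 2.92) and low for Itga5 at 4.97 (6.58 to 6.79). Neuron-primed replicate 1 was high for Itgb8, a beta subunit that pairs with alpha v, at 5.12 (1.55 to 2.16), and unprimed replicate 4 was high for Vtn at 3.98 (2.72 to 2.93). These are the 3 arrays with the highest progenitor marker sums of their groups. Unprimed replicate 3 was low for Lamb2 at 3.44 (5.03 to 5.23), and mesenchyme-primed replicate 2 was low for Fn1 at 5.71 (7.55 to 7.62).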

How the results depend on the processing

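Over 29 alternatives, 59 named differences kept their direction and side of the threshold in 1631 of the fits that gave one. They lost a call in 39, gained one in 26 and turned sign in 3. Most were not called in the main fit, so keeping their side mostly means staying uncalled. Of the called ones, Cd151 and Dag1 in neuron- against mesenchyme-primed arrays lost the call in 13 and 4 of 29 alternatives. Dag1 and Col18a1 in neuron-primed against unprimed arrays lost it in 13 and 9. The signs turned with cross-matching probe sets left out: Cd151 to 0.07 in glia- against neuron-primed and 0.21 in mesenchyme-primed against unprimed arrays, and Itga5 to -0.04 in the latter. The count of members called stayed at 0 under every alternative in 5 comparisons: glia- and mesenchyme-primed against unprimed, glia- against neuron- and mesenchyme-primed, and all primed against unprimed arrays. In neuron- against mesenchyme-primed arrays it was 1 (Itgb1) under eBayes with trend and robust, among genes above the median only, under housekeeping centring and with the Xist level, 2 with the 3 arrays left out together, and 0 to 2 without single arrays (without mesenchyme-primed replicate 4, Itgb1 passed at adjusted p = 0.0261). In neuron-primed against unprimed arrays it was 2 with the 3 arrays left out, and 0 to 3 without single arrays. The F test gave 1 under housekeeping centring, 2 with the 3 arrays left out, and 0 to 3 without single arrays.

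With the replicate block 0 members passed in every comparison, and of the partner calls Dag1 against unprimed arrays was lost (adjusted p = 0.0535). Housekeeping centring moved the median of all genes by 0.36, 0.29 and 0.02 in glia-, neuron- and mesenchyme-primed against unprimed arrays, and the members' medians to 0.30 in glia- and 0.39 in neuron-primed arrays. Genes called ranged over the alternatives from 25 to 168 in glia-, 17 to 237 in neuron- and 0 to 9 in mesenchyme-primed against unprimed arrays, 0 to 7 in glia- against neuron-, 14 to 68 in glia- against mesenchyme-, 26 to 141 in neuron- against mesenchyme-primed, 6 to 171 in all primed against unprimed arrays and 63 to 220 in the F test. The cause of these moves was not tested. Signal over background was not measured, so differences of members near the array median are rough. Fits of only the groups compared were not made for the F test or all primed arrays.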
